A study of Mus musculus with 36 samples.

Results

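The early phase of the Ikaros induction was followed in 9 of the 36 small RNA-seq samples of the series, namely all samples of the Ikaros line collected 2 h, 6 h and 12 h after induction. They were chosen by their labels alone. The main comparison set the 3 samples of 12 h against the 3 of 2 h, with 6 h as the intermediate time, over all 469 miRNAs measured. It asks which miRNAs changed between 2 h and 12 h after induction. What had moved before 2 h cannot be seen in it.

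The cells were B3, a mouse pre-B cell line. The Ikaros line carried a retroviral construct in which HA-tagged Ikaros was fused to ERt2, the hormone-binding domain of the oestrogen receptor, followed by an IRES and GFP. The control line carried ERt2-IRES-GFP without Ikaros. Both lines were pools of cells sorted for GFP, not single clones, and both received 4-hydroxy-tamoxifen (4-OHT) at 0.5 uM, so that in all 3 groups of the Ikaros line the fusion protein could enter the nucleus and the groups differed in the time since the drug was added. The viral promoter drove the fusion in addition to what the cells made of their own Ikaros. The 3 samples of each time came from 3 culture batches, and replicates 1, 2 and 4 of different times shared a batch of the same rank. According to the design drawn in the study, all 9 samples were run in its first sequencing batch, and replicate 2 of 12 h and replicate 4 of 6 h also in the second, after which both runs were averaged. The control samples of these times were run in the second batch, so that, ahead of the correction made by the authors, line and sequencing run cannot be told apart. No untreated sample shares these culture batches, and 2 h served as the baseline.

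Ikaros is a zinc-finger transcription factor that pushes large cycling pre-B cells to stop dividing and to become small pre-B cells, in part by silencing genes of the pre-B cell receptor and Myc. A miRNA is cut from a hairpin with 2 arms. Usually one arm, the guide, is loaded into the silencing complex and the other, the partner, is degraded. Targets are recognised mainly through the seed, bases 2 to 8 from the 5′ end. In developing B cells the miR-17 cluster (host transcript Mir17hg), which Myc activates, supports the survival of pro-B and pre-B cells, whereas forced miR-34a or miR-23a cluster expression hinders B lymphopoiesis.

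Between 2 h and 12 h, 3 miRNAs rose (miR-151-3p, miR-26a-2-3p and miR-181b-2-3p) and 8 fell (miR-128-2-5p, miR-30e-5p, miR-34c-5p, miR-27a-5p, miR-466d-5p, miR-92a-1-5p, miR-146a-5p and miR-34a-5p). The mature sequences of 8 of these 11 were matched by name in RefSeq (GRCm38.p6). They are printed 5′ to 3′ with the seed in capitals, because the seed decides which of them could share targets.
miR-26a-2-3p: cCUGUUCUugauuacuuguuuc
miR-181b-2-3p: cUCACUGAucaaugaaugcaaa
miR-128-2-5p: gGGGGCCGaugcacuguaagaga
miR-30e-5p: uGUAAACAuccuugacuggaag
miR-27a-5p: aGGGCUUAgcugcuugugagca
miR-92a-1-5p: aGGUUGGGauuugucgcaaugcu
miR-146a-5p: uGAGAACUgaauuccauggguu
miR-34a-5p: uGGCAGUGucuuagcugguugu

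Each of these 8 seeds is different. MiR-151-3p, miR-34c-5p and miR-466d-5p were not matched and are outside this statement. Several were the less abundant arm of their hairpin, and the opposite arms are shown to make the pairs visible, again with the seed in capitals. The arms of a pair have different seeds.
miR-26a-5p, opposite miR-26a-2-3p: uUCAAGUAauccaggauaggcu
miR-181b-5p, opposite miR-181b-2-3p: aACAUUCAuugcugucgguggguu
miR-128-3p, opposite miR-128-2-5p: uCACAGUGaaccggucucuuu
miR-30e-3p, opposite miR-30e-5p: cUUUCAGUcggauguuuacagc
miR-92a-3p, opposite miR-92a-1-5p: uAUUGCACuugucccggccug

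Of the hairpins behind the 8 matched miRNAs, 4 lie inside a longer annotated gene. In GRCm38, with GENCODE vM21, Mir128-2 (chr9:112118636-112118711, minus strand) lies in an intron of Arpp21 and Mir30e (chr4:120772606-120772697, minus) in an intron of Nfyc, which encodes a subunit of the NF-Y transcription factor. Mir26a-2 (chr10:126995530-126995613, plus) overlaps an annotated exon of Ctdsp2, which encodes a small phosphatase. Mir92-1 (chr14:115044427-115044506, plus) overlaps an exon of Mir17hg, the transcript of the miR-17 cluster. Mir181b-2 (chr2:38853830-38853918, plus), Mir34a (chr4:150068454-150068555, plus), Mir27a (chr8:84208672-84208758, plus) and Mir146 (chr11:43374397-43374461, minus) overlap no gene annotated on their strand other than miRNA genes.

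All values are log2 values as normalised by the authors, and a difference of 1 is a doubling. Across the 9 samples they ran from 0.09 to 19.30, with sample medians between 3.74 and 4.15. Pearson correlations across miRNAs between samples of the same time lay between 0.968 and 0.995, the lowest being that of replicates 1 and 4 at 12 h. The table holds no counts, so the depth of each sample is unknown and no counting error can be given. In each sample the 10 most abundant miRNAs held between 75.8% and 82.6% of the summed linear values.

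Some libraries stood apart from their group. The deviations of all 36 samples from their group means had one leading axis that held 36.5% of their variance, and the samples of 2 h and 12 h lay on it in the same order of replicates. The scores were -0.25, -0.07 and 0.32 at 2 h and -0.33, -0.09 and 0.42 at 12 h for replicates 1, 2 and 4. At 6 h they were 0.24, -0.19 and -0.05, an order not shared with the other times. The guide arms miR-19a-3p and miR-19b-3p of the miR-17 cluster had the highest weights. MiR-19a-3p stood at 7.91, 9.26 and 12.17 at 2 h, at 13.15, 9.32 and 10.40 at 6 h, and at 7.16, 8.82 and 14.26 at 12 h, a span far wider than any change between times. Its change from 2 h to 12 h was 0.30 ± 1.33 (SE). Across the 469 miRNAs the weight on this axis and the change from 2 h to 12 h had a Pearson correlation of 0.066, a description over miRNAs that share the same libraries. Removing the axis left the 11 calls in place among 21. Its scores are centred within every group, so its removal cannot alter a change between times and acts on the residual spread alone. The part of these deviations in the results was not tested.

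**Figure D1:**
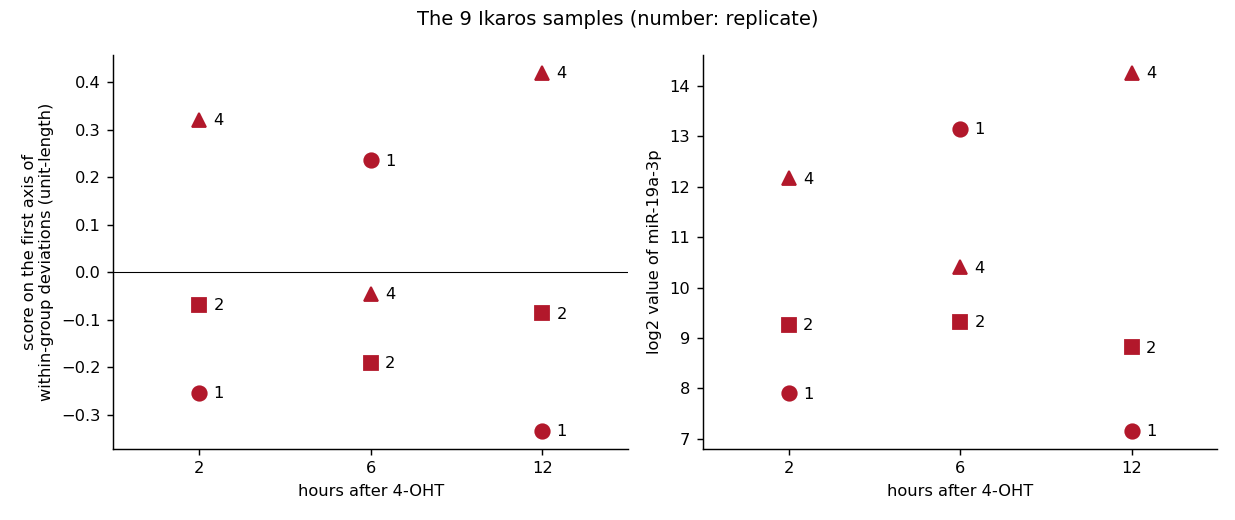
Left, the score of each of the 9 Ikaros samples on the leading axis of deviations from group means, against hours after 4-OHT. Right, the log2 value of miR-19a-3p in the same samples. Points are single samples numbered by replicate. Replicate 4 is highest and replicate 1 lowest at 2 h and 12 h, and replicate 1 is highest at 6 h.

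None of the 10 miRNAs of highest mean level passed the test between 2 h and 12 h, and their changes lay between -0.56 and 0.38. Highest was miR-191-5p, a miRNA abundant in blood cells, with 25.1% ± 0.74 (SD, n = 3) of the summed linear values at 2 h and 21.0% ± 4.46 at 12 h. MiR-10a-5p, a miRNA from a Hox gene cluster, held 19.9% ± 10.6 at 2 h and 17.8% ± 13.3 at 12 h, and its spread between replicates exceeded its change. The lymphocyte miRNA miR-181a-5p had a level of 17.79 ± 0.13 at 2 h and 18.11 ± 0.13 at 12 h. The cell-cycle restraining miR-16-5p was at 16.33, 16.48 and 16.49 at 2 h and at 16.59, 16.93 and 16.92 at 12 h, without overlap, and its change of 0.38 ± 0.13 did not pass (limma adjusted p = 0.139). MiR-298-5p, with a change of -0.56 ± 0.23, did not pass either (adjusted p = 0.283). The others among the 10 were miR-25-3p, miR-181b-5p, miR-21a-5p, miR-142-5p and let-7f-5p.

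Over all 469 miRNAs, 11 passed the test between 2 h and 12 h (limma, Benjamini-Hochberg adjusted p under 0.05), which is 2.35% of those tested, 3 higher and 8 lower at 12 h. At an unadjusted p under 0.05 the number was 60. The median change over all miRNAs was -0.08, and the median SE of a change was 0.29. With each sample centred on its median, which moved the median change to 0.07, 5 passed, 4 of them higher and 1 lower, and with quantile normalization 12 passed, 5 higher and 7 lower. Of the 8 that fell, only miR-128-2-5p also passed with median centring (adjusted p = 0.0414), whereas the 3 that rose all did. The split between rises and falls depends on the scaling. These are bulk samples, in which fewer cells that make a miRNA and less of it per cell cannot be told apart. Every one of the 11 kept its direction in all alternatives that gave it a value. Because their 2 h and 12 h samples did not overlap, only median centring and quantile normalization could have reversed a direction. In the other alternatives the direction was fixed in advance.

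The count also depends on single libraries. It was 3 without replicate 4 of 2 h and 5 without replicate 2 of 2 h. It was 7 without replicate 1 of 12 h and also 7 without replicate 2 of 12 h. Leaving out 1 replicate number in all 12 groups of both lines gave 3 calls without replicate 1. It gave 0 without replicate 2 or without replicate 4 (35 and 46 at an unadjusted p under 0.05 in limma). These fits also have fewer residual degrees of freedom than the main one. With the spread taken from the 6 samples compared alone, limma called 0 (30 at an unadjusted p under 0.05).

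**Figure D2:**
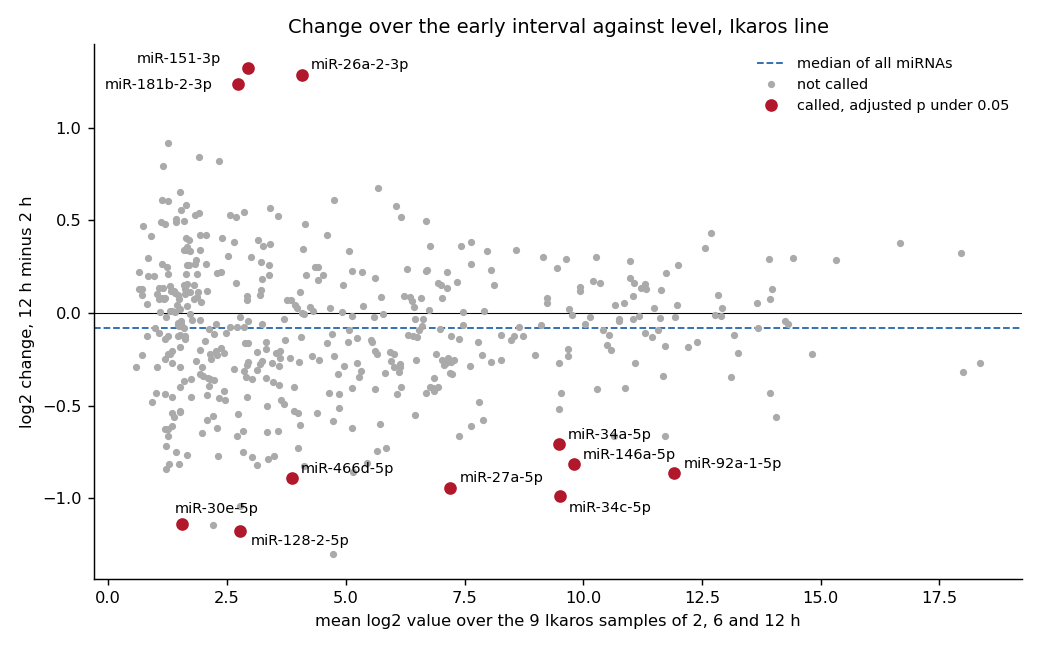
Log2 change of the Ikaros line between 2 h and 12 h (vertical) against the mean log2 value over the 9 samples (horizontal), 1 point per miRNA for 469 miRNAs. Red points are the 11 that passed the test and the dashed line is the median of all, -0.08. The 3 that rose have means near or below that of the median miRNA, whereas the 8 that fell lie across the range.

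Largest of the rises was that of miR-151-3p. Its values were 2.33, 1.83 and 2.61 at 2 h, 3.27, 2.92 and 2.83 at 6 h, then 3.72, 3.43 and 3.59 at 12 h (replicates 1, 2 and 4). Every sample of 6 h and of 12 h was above every sample of 2 h, and 12 h was above 6 h throughout. The change from 2 h to 12 h was 1.32 ± 0.31 (SE, adjusted p = 0.0140), or 2.50-fold. The opposite arm, miR-151-5p, changed by 0.82 ± 0.40 and did not pass (adjusted p = 0.385). The call for miR-151-3p was lost without replicate 2 of 2 h (adjusted p = 0.127) and without replicate 1 of 12 h (0.0520).

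MiR-26a-2-3p is the partner arm of the Mir26a-2 hairpin, whose guide miR-26a-5p restrains growth and acts on Ezh2. It read 2.93, 3.76 and 3.57 at 2 h, 4.20, 3.96 and 4.10 at 6 h, then 4.49, 4.63 and 5.01 at 12 h. The 3 groups did not overlap and rose in order of time. Its change of 1.29 ± 0.24 had the lowest adjusted p of the comparison (0.00320). It was also the only one of the 11 to pass when any single sample of 2 h or 12 h was left out, with an adjusted p of at most 0.0158. The guide itself, miR-26a-5p, made from both this hairpin and Mir26a-1, went from 13.78 ± 0.17 (SD, n = 3) to 14.07 ± 0.10. That change of 0.29 ± 0.13 did not pass (adjusted p = 0.334).

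The rise in miR-181b-2-3p came late in the interval. This partner arm of the Mir181b-2 hairpin, of the miR-181 family that shapes lymphocyte signalling, was at 2.51, 2.27 and 2.26 at 2 h and at 2.04, 2.47 and 2.29 at 6 h. At 12 h it was at 3.91, 3.20 and 3.63. The samples of 2 h and 6 h overlapped and all lay below those of 12 h. The change from 2 h to 12 h was 1.24 ± 0.28 (adjusted p = 0.0103), against -0.08 ± 0.28 from 2 h to 6 h. Its call was lost without replicate 1 of 12 h (adjusted p = 0.0520), replicate 2 of 2 h (0.0549) or replicate 4 of 2 h (0.0674). RefSeq lists miR-181b-1-3p at 2 edits from it, so reads of the 2 could have been shared between names; that miRNA was not analysed here.

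Among the falls, miR-128-2-5p had the largest share of its change present in the 6 h mean. Its change from 2 h to 6 h did not pass (limma adjusted p = 0.185). The partner arm of an intronic hairpin in Arpp21, a gene of lymphoid progenitors and neurons, it was at 3.33, 3.21 and 3.89 at 2 h. It read 2.63, 2.59 and 2.32 at 6 h, then 2.50, 2.28 and 2.12 at 12 h. Both later groups lay wholly below 2 h, and they overlapped each other. From 2 h to 12 h the change was -1.18 ± 0.25 (adjusted p = 0.00650), and 82.3% of it was present in the 6 h mean. The guide miR-128-3p stood at 9.29 ± 0.43 and 9.34 ± 0.46, a difference within its spread. Without replicate 4 of 2 h the call was lost (adjusted p = 0.0858).

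MiR-30e-5p, an arm of the miR-30 family, was near the bottom of the measured range, at 1.62, 2.25 and 2.4 at 2 h. It was at 1.79, 1.62 and 1.44 at 6 h and at 1.00, 0.90 and 0.95 at 12 h. The change of -1.14 ± 0.29 passed (adjusted p = 0.0228), and it passed in 1 of the 6 fits that left out a single sample. The loss came without any sample of 12 h, or without replicate 2 or 4 of 2 h, with an adjusted p of up to 0.183, and with median centring (0.154). Its opposite arm, miR-30e-3p, had 11.24 ± 0.55 at 2 h and 11.37 ± 0.24 at 12 h. RefSeq has miR-30a-5p at a distance of 1 edit, so reads could be assigned to either name; miR-30a-5p was not analysed here.

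The miR-34 family, which p53 activates and which represses cell-cycle genes and, in B cell progenitors, Foxp1, fell in 2 members. MiR-34a-5p was at 9.87, 9.98 and 9.71 at 2 h, at 9.46, 9.64 and 9.34 at 6 h, and at 9.61, 9.01 and 8.83 at 12 h. All samples of 6 h and 12 h lay below those of 2 h, and the 6 h and 12 h samples overlapped. The change was -0.71 ± 0.17 (adjusted p = 0.0146), the smallest of the 11, or 0.613 of the 2 h level. It passed in 2 of 6 fits without a single sample and was lost without replicates 2 or 4 of 12 h or replicates 1 or 2 of 2 h (adjusted p up to 0.112), and also with median centring (0.104) and quantile normalization (-0.47, adjusted p = 0.300).

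MiR-34c-5p, from a separate locus that also makes miR-34b, had a mean at 6 h close to that of 2 h. The values were 9.56, 9.73 and 10.32 at 2 h, 10.15, 9.39 and 9.70 at 6 h, then 8.74, 8.47 and 9.45 at 12 h. The change to 12 h was -0.99 ± 0.23 (adjusted p = 0.0140), against -0.12 ± 0.23 to 6 h. It was lost without replicates 1 or 2 of 12 h or replicate 4 of 2 h (adjusted p up to 0.183), and with median centring (0.0719). Its neighbour miR-34b-5p had the most negative change of all 469 miRNAs, -1.30 ± 0.41, but its replicates were wide apart, at 4.60, 5.03 and 5.90 at 2 h and 3.77, 2.99 and 4.86 at 12 h. The groups overlapped and it did not pass (adjusted p = 0.101).

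MiR-27a-5p is the partner arm of the middle hairpin of the miR-23a cluster, which curbs B lymphopoiesis in favour of myeloid cells. It was at 7.29, 7.73 and 7.97 at 2 h, at 7.37, 6.86 and 7.40 at 6 h, and at 6.88, 6.51 and 6.78 at 12 h. The 12 h samples lay below all of 2 h, and the 6 h samples overlapped with 2 h. The change was -0.94 ± 0.19 (adjusted p = 0.00456). Only without replicate 4 of 2 h, among the single samples, was the call lost (adjusted p = 0.0674), and it was lost with median centring as well (0.0645).

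MiR-92a-1-5p is the partner arm of the last hairpin of the miR-17 cluster and, unlike most partner arms, nearly as abundant as its guide. Its values were 12.09, 12.22 and 12.80 at 2 h and 11.24, 11.54 and 11.73 at 12 h, without overlap, and its mean at 6 h was 11.88 ± 0.22 (SD, n = 3), with samples that overlapped both. The change was -0.86 ± 0.17 (adjusted p = 0.00456), with -0.49 ± 0.17 from 2 h to 6 h. The guide miR-92a-3p, which comes from 2 hairpins, changed by -0.16 ± 0.27 and did not pass (adjusted p = 0.875). The call on miR-92a-1-5p was lost without replicate 4 of 2 h (adjusted p = 0.0727) and with median centring (0.0719).

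MiR-146a-5p, a miRNA that NF-kB induces and that brakes the same pathway through Traf6 and Irak1, was at 10.00, 10.09 and 10.48 at 2 h. It stood at 9.73, 9.75 and 9.98 at 6 h and at 9.37, 9.14 and 9.62 at 12 h. Each group lay below the one before it, without overlap. The change was -0.82 ± 0.21 (adjusted p = 0.0228), and was lost without replicates 1 or 2 of 12 h or replicates 2 or 4 of 2 h (adjusted p up to 0.183) and with median centring (0.12). MiR-466d-5p belongs to a rodent family of many similar copies, among which reads can be divided. It was at 4.28, 4.21 and 4.37 at 2 h, 3.87, 3.80 and 4.13 at 6 h, then 3.60, 3.22 and 3.36 at 12 h, again without overlap of neighbouring times. Its change of -0.89 ± 0.25 passed narrowly (adjusted p = 0.0449) and in none of the 6 fits without a single sample, where the adjusted p lay between 0.0520 and 0.183, nor with median centring (0.154) or quantile normalization (0.232).

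For all 11 miRNAs the samples of 12 h and of 2 h did not overlap. Among all miRNAs, 18 were higher without overlap (3.84%) and 42 lower (8.96%). In the control line the same comparison gave 19 higher (4.05%) and 24 lower (5.12%).

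**Figure D3:**
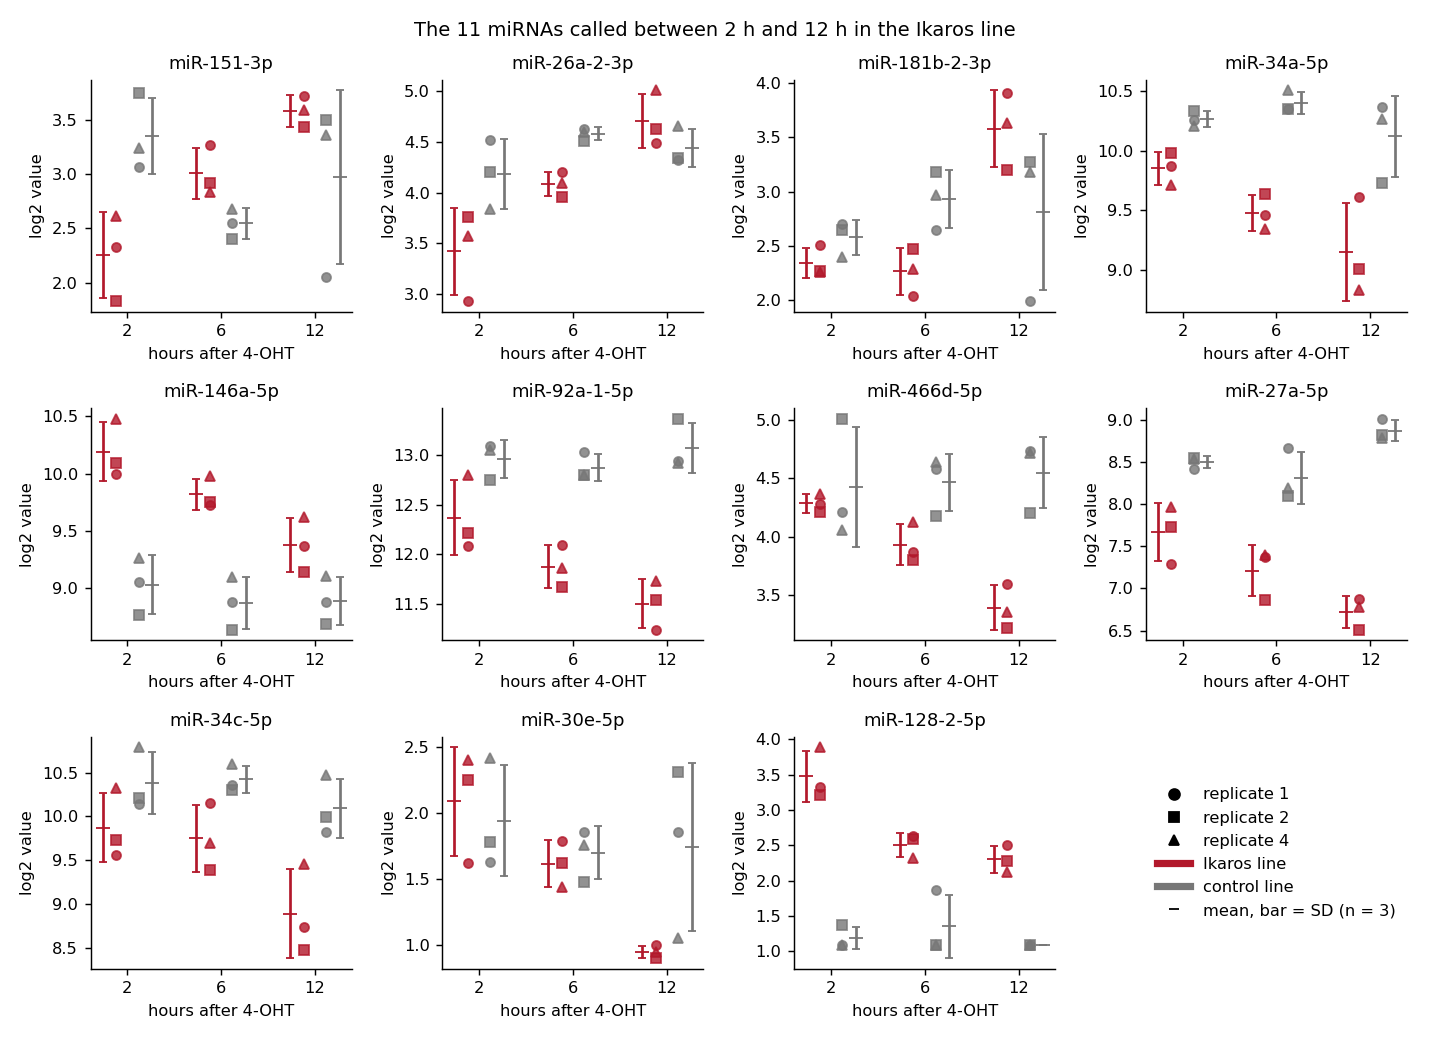
Log2 values (vertical) of the 11 miRNAs against hours after 4-OHT, with symbols for replicates 1, 2 and 4, red for the Ikaros line and grey for the control line. Horizontal ticks with bars are the mean and SD of 3 samples. In the red points the 12 h samples lie wholly above (first 3 panels) or below (other panels) those of 2 h. The vertical axes do not start at 0 and differ between panels.

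The samples of 6 h show how much of the change was visible by then. From 2 h to 6 h no miRNA passed the test (0% of 469, limma), with 20 at an unadjusted p under 0.05. From 6 h to 12 h 1 passed (0.213%), miR-181b-2-3p, by 1.31 ± 0.28 (adjusted p = 0.0242). This call was lost without replicate 1 of 12 h, replicate 1 of 6 h or replicate 4 of 6 h, each of which left 0 calls (31, 15 and 41 at an unadjusted p under 0.05). Without replicate 4 of 12 h there were 4 calls. A moderated F-test over the 3 times called 6 miRNAs (1.28%), which were miR-26a-2-3p, miR-181b-2-3p, miR-27a-5p, miR-92a-1-5p, miR-128-2-5p and miR-34c-5p. It called 2 without replicate 4 of 2 h and 3 without replicate 2 of 12 h.

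For 10 of the 11 called miRNAs the mean at 6 h lay between those of 2 h and 12 h, the exception being miR-181b-2-3p. The share of the change present at 6 h ran from -6.1% in miR-181b-2-3p to 82.3% in miR-128-2-5p. These shares are a description without intervals. They place miR-128-2-5p at one end, with most of the difference present by 6 h, and miR-34c-5p and miR-181b-2-3p at the other.

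Outside the 11, the lowest unadjusted p from 2 h to 6 h belonged to miR-335-5p and miR-201-5p among the miRNAs higher at 6 h and to miR-1981-3p and miR-219a-1-3p among those lower, and none of these passed. MiR-335-5p, from an intron of the imprinted gene Mest, was at 1.24, 1.42 and 0.87 at 2 h and at 2.73, 2.07 and 2.04 at 6 h. It came back to 1.42, 1.29 and 1.88 at 12 h. Its change of 1.11 ± 0.34 to 6 h had an adjusted p of 0.327. MiR-1981-3p was at 4.89, 4.56 and 4.95, then at 3.45, 4.13 and 4.27, and returned to 4.40, 4.94 and 4.30. Its change to 6 h was -0.85 ± 0.23 (adjusted p = 0.185). MiR-201-5p, of low level, moved by 0.78 ± 0.29 to 6 h and stood at 0.79 ± 0.29 at 12 h relative to 2 h (adjusted p = 0.827 and 0.195). MiR-219a-1-3p moved by -0.92 ± 0.28 and -0.73 ± 0.28 (adjusted p = 0.327 and 0.222).

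Of the miR-17 cluster, the 6 guide arms had 2 members higher and 4 lower at 12 h, none of which passed, with a median change of -0.17. The median over all miRNAs was -0.08, with 193 of the 469 higher, 276 lower, and 2.35% called, and the counts of each list are to be read against these. All 6 partner arms were lower, beside 276 of 469 among all miRNAs, with a median of -0.57, and 1 passed, miR-92a-1-5p. MiR-19b-1-5p changed by -0.86 ± 0.35 (adjusted p = 0.266), miR-19a-5p by -0.60 ± 0.34 and miR-20a-3p by -0.54 ± 0.24. Between 2 h and 6 h the median of the partner arms was -0.06 and from 6 h to 12 h -0.44. In the control line the median of the same arms was -0.05 from 2 h to 12 h. The paralogous clusters, miR-106a-363 and miR-106b-25, had 6 members higher and 10 lower, with a median of -0.13 and no call. The most negative among them was miR-18b-3p, a partner arm as well, with -0.61 ± 0.21 (adjusted p = 0.139). The 6 partner arms come from a single transcript and are not independent of each other. With median centring the medians of the partner arms and of the miR-23/27/24 clusters were -0.42 and -0.32, and that of the guide arms was -0.02. Those of the miR-29 arms and the Clcn5 cluster moved up to 0.30 and 0.40, and those of the paralogs, the B-lineage list, let-7, miR-30 and the hypoxia list turned positive.

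Of 10 measured arms of the miR-23a and miR-23b clusters 9 were lower, beside 276 of 469 among all, and 1 passed, miR-27a-5p, with a median of -0.47. MiR-24-2-5p was at -0.66 ± 0.22 (adjusted p = 0.128), miR-23a-5p at -0.65 ± 0.32 and miR-24-1-5p at -0.62 ± 0.29. The guides miR-23a-3p and miR-24-3p stood at -0.02 ± 0.24 and -0.34 ± 0.21. In the control line the list had a median of -0.03.

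Among 21 measured miRNAs with roles in B-lineage cells and lymphocytes, 2 fell, miR-146a-5p and miR-34a-5p, and none rose, beside 8 that fell and 3 that rose among all 469, with a median of -0.12. The largest change short of the test was that of miR-222-3p, -0.75 ± 0.36 (adjusted p = 0.382). MiR-150-5p, which restrains Myb in mature B cells, changed by -0.0020 ± 0.33. MiR-155-5p, needed for germinal centre responses, changed by 0.04 ± 0.18. The guide miR-146b-5p, with the same seed as miR-146a-5p, went the other way by 0.36 ± 0.21 without passing (adjusted p = 0.514).

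Families known to restrain growth gave 18 measured members, of which 2 fell, miR-34a-5p and miR-34c-5p. Of the 18, 10 were higher, beside 193 of 469 among all, and the median was 0.05, or 0.20 with median centring. MiR-497-5p and miR-195a-5p, of the miR-15 family that represses cyclins, changed by 0.57 ± 0.26 and 0.52 ± 0.28 (adjusted p = 0.361 and 0.486). MiR-29c-3p, of a family that acts on Mcl1 and DNA methyltransferases, changed by 0.58 ± 0.17. It was at 5.80, 5.79 and 5.69 at 2 h, 6.09, 6.02 and 6.02 at 6 h, then 6.52, 6.26 and 6.25 at 12 h, without overlap, and missed the threshold (adjusted p = 0.0758).

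Of the 7 miR-29 arms, miR-29c-3p included, 4 were higher, with a median of 0.15. In the miR-30 family 3 of 8 were higher and 5 lower, and miR-30e-5p alone passed. The 6 let-7 guides, which accumulate as cells differentiate, lay between -0.09 and 0.28 and none passed. Of the 10 arms measured from the X-linked hairpin cluster in an intron of Clcn5, 8 were higher, with a median of 0.25 and no call. The 7 miRNAs of the hypoxia and glycolysis list had 3 higher and 4 lower, a median of -0.04 and no call, and among them miR-210-3p, which hypoxia induces, changed by -0.41 ± 0.34.

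**Figure D4:**
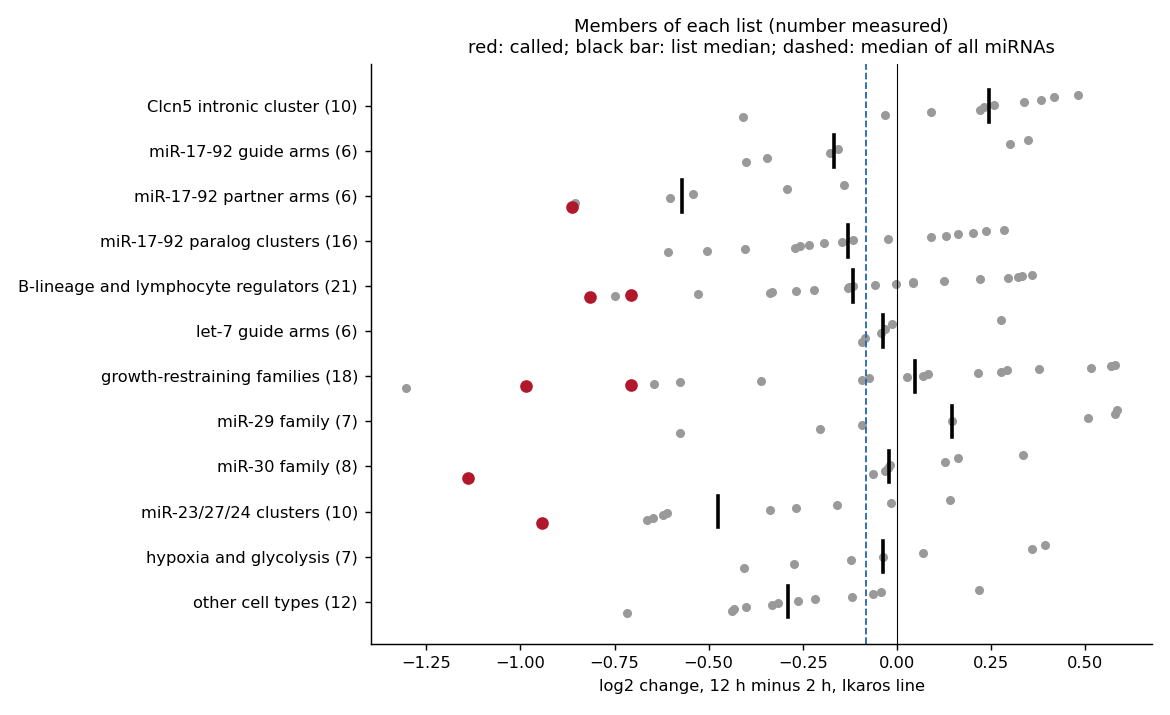
Log2 change of the Ikaros line between 2 h and 12 h (horizontal) of the measured members of 12 lists, 1 point per miRNA, with the number measured in brackets. Red points passed the test, black bars are list medians and the dashed line is the median of all miRNAs, -0.08. The partner arms of the miR-17 cluster (median -0.57) and the miR-23/27/24 clusters (-0.47) lie furthest to the left. Some miRNAs belong to more than 1 list.

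The arms of each hairpin were set side by side over the 127 hairpins with both arms measured and matched in RefSeq. The arms were ranked by their mean over all 36 samples, and the less abundant arm stood a median of 3.24 below the other. Of 124 less abundant arms 5 passed the test (4.03%), and of 117 more abundant arms 2 passed (1.71%). The median absolute change was 0.26 in the less and 0.21 in the more abundant arms, and the median SD within groups was 0.39 and 0.33. The 5 were miR-26a-2-3p, miR-181b-2-3p, miR-128-2-5p, miR-30e-5p and miR-92a-1-5p, and the 2 were miR-146a-5p and miR-34a-5p. Both arms changed in the same direction in 81 of the 127 hairpins, and the Pearson correlation of their changes across hairpins was 0.27, a description, since the arms of one hairpin share libraries. No hairpin had both arms called.

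Within a seed group the values differed in several cases. MiR-26b-3p, with the seed of miR-26a-2-3p, was at 7.74 ± 0.30 (SD, n = 3) at 2 h and 7.07 ± 0.08 at 12 h, a change of -0.67 ± 0.22 (adjusted p = 0.128) beside a rise of 1.29 in miR-26a-2-3p. MiR-128-1-5p changed by 0.04 ± 0.26 while miR-128-2-5p fell by 1.18. MiR-30c-5p, with the seed of miR-30e-5p, changed by -0.02 ± 0.22. MiR-449a-5p, with the seed of miR-34a-5p and miR-34b-5p, changed by 0.07 ± 0.26. In the same direction as miR-34a-5p (-0.71) went miR-34b-5p, by -1.30 ± 0.41, without passing (limma adjusted p = 0.101). The family member miR-34c-5p changed by -0.99 ± 0.23, but its sequence was not matched. The differences within these seed groups were not tested. The sequences are given to show how far the resemblance goes outside the seed, which is in capitals.
miR-26b-3p: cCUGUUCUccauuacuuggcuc
miR-128-1-5p: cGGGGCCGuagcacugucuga
miR-30c-5p: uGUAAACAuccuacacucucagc
miR-146b-5p: uGAGAACUgaauuccauaggcu
miR-34b-5p: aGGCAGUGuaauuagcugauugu

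Beyond the seed, 391 of the 469 names were matched to a mature sequence, with a median GC content of 50.0% over all and 44.4% over the 8 matched called miRNAs, between 36.4% and 60.9%. Across the 391, GC content and the change from 2 h to 12 h had a Pearson correlation of -0.11, and GC content and the weight on the leading axis of deviations one of -0.21. Both are descriptions over miRNAs of the same libraries, whose values the authors had corrected for GC. A U as the first base, which Argonaute prefers, was held by 3 of the 8, beside 40.4% of the 391. By mean level over the 9 samples, 5 of the 11 lay below the median miRNA.

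The control line, which received 4-OHT too, served to separate time after the drug from the presence of the fusion protein. In it 3 miRNAs passed between 2 h and 12 h (0.640%), of which none was among the 11. MiR-6240 fell by 2.18 ± 0.27 (adjusted p = 2.7e-06), and miR-3058-3p and miR-467c-3p rose. With the replicate block 6 passed. The count was 8 without replicate 1 of control 12 h and 5 without its replicate 4. It was 1 without its replicate 2 or without replicate 4 of control 2 h. The 11 miRNAs changed in the control line by between -0.38 and 0.37, in 7 cases with the sign of the Ikaros line. For miR-128-2-5p, 7 of the 9 control values of these times were tied at 1.09, so that its spread in that line is understated. Because the fit pools the spread over both lines, the SE and adjusted p of its change in the Ikaros line draw on these tied values too.

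The difference between the lines over the same interval was tested directly, and 3 miRNAs passed (0.640%). One of the 11 was among them. MiR-27a-5p went from 7.67 ± 0.34 (SD, n = 3) to 6.72 ± 0.19 in the Ikaros line and from 8.50 ± 0.07 to 8.87 ± 0.12 in the control line. The difference between the changes was -1.31 ± 0.27 (adjusted p = 0.0178). In the other calls the change was larger in the control line. MiR-3058-3p was at 0.73, 0.93 and 0.49 at 2 h, then 1.47, 1.55 and 1.86 at 12 h, in the control line, while the Ikaros line had 1.70, 1.06 and 1.17, then 0.92, 0.51 and 1.20 (difference -1.34 ± 0.30, adjusted p = 0.0233). MiR-6240 was at 2.87, 2.64 and 3.73, then 1.08, 0.52 and 1.10 in the control line, and at 2.64, 2.35 and 2.45, then 1.44, 2.16 and 2.17 in the Ikaros line (1.63 ± 0.38, adjusted p = 0.0309). Both had low values throughout.

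Just outside the threshold were miR-92a-1-5p, with a difference of -0.98 ± 0.25 (adjusted p = 0.0522), and miR-151-3p, with 1.70 ± 0.44 (adjusted p = 0.0566). For miR-497-5p the difference was 1.29 ± 0.37 (adjusted p = 0.101). For the other 8 of the 11 the adjusted p was between 0.166 and 0.391, which does not show that they moved alike in both lines. No miRNA passed without replicate 4 of Ikaros 2 h or without replicate 2 of Ikaros 12 h (49 and 45 at an unadjusted p under 0.05 in limma). Without replicate 4 of control 12 h, 9 passed, and 6 without replicate 1 of control 2 h. It was 5 without replicate 1 of Ikaros 12 h and 1 without replicate 4 of control 2 h.

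**Figure D5:**
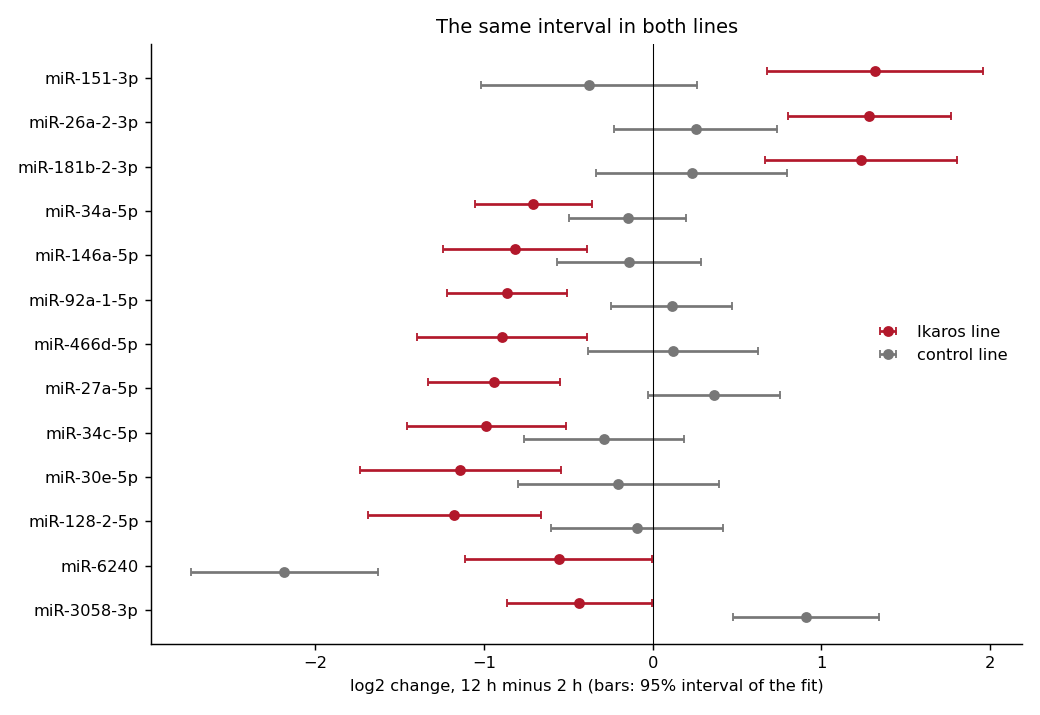
Log2 change from 2 h to 12 h (horizontal) in the Ikaros line (red) and the control line (grey), with 95% intervals of the fit, for the 11 called miRNAs and for miR-6240 and miR-3058-3p. For the 11 every grey interval covers 0. For miR-6240 and miR-3058-3p the larger change is that of the control line.

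The early phase was last compared with the later one, from 12 h to 24 h, which shares the 12 h samples with it, so that an extreme 12 h value moves both changes in opposite directions. From 12 h to 24 h 51 of the 469 miRNAs passed (limma), 27 higher and 24 lower at 24 h, and 5 of the 11 passed there too. The difference between the phases had a median SE of 0.51, and few calls do not show that the phases were alike. The difference passed in 1 miRNA (0.213%), miR-30e-5p, and in 3 with the replicate block. Its means were 2.09 ± 0.41 (SD, n = 3) at 2 h, 0.95 ± 0.05 at 12 h and 2.68 ± 0.30 at 24 h, so that it fell and then rose again, and the difference of the changes was -2.87 ± 0.50 (adjusted p = 0.00164). There were 4 calls without replicate 4 of Ikaros 12 h and 2 without replicate 1 of that time or replicate 4 of 24 h. MiR-92a-1-5p ended at 9.77 ± 0.26 at 24 h and miR-26a-2-3p at 5.60 ± 0.24, further from 2 h than at 12 h. MiR-34c-5p, in contrast, was at 8.89 ± 0.51 at 12 h and at 8.78 ± 0.14 at 24 h, and miR-27a-5p at 6.72 ± 0.19 and 6.89 ± 0.31, values within their spread.

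The labelled cell type was checked against its markers. The haematopoietic and B-lineage miRNAs miR-181a-5p, miR-142-5p, miR-155-5p and miR-191-5p were high, with means at 2 h of 17.79, 14.38, 10.66 and 18.46. MiR-150-5p, which marks mature lymphocytes, was at 4.11. Of 31 names listed as markers of other cells, spelling variants included, 12 were measured. All 12 together held between 11.9% and 32.5% of the summed linear values at 2 h and between 6.94% and 33.1% at 12 h, nearly all of it miR-10a-5p, whose replicates were wide apart. The 10 without miR-10a-5p and miR-10b-5p held between 0.69% and 0.77% of the summed linear values at 2 h and between 0.61% and 0.64% at 12 h, nearly all of it miR-9-5p, at 13.31 ± 0.40 and 13.09 ± 0.43. Of the 12, 1 was higher and 11 were lower at 12 h, beside 276 of 469 lower among all miRNAs, with no call and a median of -0.29, which was -0.14 with median centring. The myeloid miR-223-3p was at 2.24 ± 0.42 and 2.45 ± 0.75, and the mesenchymal miR-143-3p at 1.62 ± 0.30 and 0.90 ± 0.58. Higher were the endothelial miR-126a-3p, at 7.37 ± 0.22 and 7.04 ± 0.12, and miR-9-3p, at 6.39 ± 0.04 and 6.27 ± 0.22. The epithelial miR-200c-3p was at 5.11 ± 0.17 and 4.67 ± 0.18. The remaining markers outside miR-9-5p, miR-10a-5p and miR-10b-5p had lower means than these. MiR-126a-3p was also counted in the list for B-lineage cells and lymphocytes. The part of these markers in the results was not tested.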

How the data were processed

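Small RNA of B3 cells was sequenced by the authors, and the deposited values are normalised log2 values per miRNA. Per their methods and the labels, the authors aligned reads with Novoalign to the mouse miRNAs of miRBase (labels: mm10), counted them with multiBamCov of bedtools, removed miRNAs under a CPM of 1, corrected GC content with cqn, normalised with TMM, removed the sequencing batch effect by ComBat and took the mean of technical replicates. Only log2 values were analysed here, and sample depth is not recorded in them. Per the methods, the technical replicates also served to keep batch from being confounded with condition. The adjustment could still add or remove differences between lines that were sequenced in different batches.

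Samples were grouped by line and time from the labels. All 469 miRNAs and 36 samples entered one limma 3.58.1 model in R 4.3.3 (12 group means, eBayes with a mean-variance trend, 24 residual degrees of freedom), with two-sided tests and Benjamini-Hochberg adjustment over all miRNAs. Errors after ± are SE for changes and SD for levels, and 95% intervals are from the fit. The script was tested on simulated data. P-values rest on the spread within groups, pooled over all 12 groups of both lines, with culture batch left out of the model. The 3 samples of each group came from different culture batches, and those of 0 h from other batches than the rest. Because the labels give same-numbered samples the same culture batch, a fit with the replicate block was an alternative. Deviations of same-numbered samples at 2 h and 12 h correlated at 0.62, 0.07 and 0.69 in the Ikaros line and at 0.13, -0.10 and 0.14 in the control line (replicates 1, 2 and 4). In the Ikaros line they correlated at -0.47, 0.27 and -0.03 for 2 h and 6 h and at -0.61, 0.29 and -0.19 for 6 h and 12 h.

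Named miRNAs were all those past the threshold between 2 h and 12 h with one sign in all 3 same-numbered pairs, up to 10 per direction, the largest changes from 2 h to 6 h and between lines by a like rule, filled up to 3 per direction by the lowest p, the 10 highest means, and list members. The comparison and lists were chosen with earlier results of these data known. MiR-34b-5p, opposite arms, miR-150-5p, miR-155-5p, cluster guides and cell markers were named after their values were seen. Sequences and positions are from RefSeq (GRCm38.p6) and GENCODE vM21. Alternatives were median centring, quantile normalization, a filter of low means, the block, the compared groups alone, other variance models, sample weights and left-out samples. Python 3.11.15, numpy 2.4.6, pandas 2.3.3 and matplotlib 3.10.9 were used.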

Additional observations from a re-analysis of the deposited data

Results flagged for a closer look

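For 3 miRNAs the change from 2 h to 12 h differed between the lines by the direct test in limma. The difference, Ikaros minus control, was -1.31 for miR-27a-5p, -1.34 for miR-3058-3p and 1.63 for miR-6240. In miR-27a-5p the Ikaros line changed by -0.94 and the control line by 0.37, which did not pass (limma adjusted p = 0.544). In the other 2 the change in the control line was the larger, at 0.91 and -2.18 beside -0.43 and -0.56 in the Ikaros line. At these times line and sequencing run cannot be told apart ahead of the adjustment by the authors. For miR-30e-5p the change from 2 h to 12 h differed from that of 12 h to 24 h by -2.87, with a change of -1.14 in the early and 1.73 in the later phase. The mean of at least 2 that served as a filter in one alternative leaves this miRNA out.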

How the results depend on the processing

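Every one of the 11 miRNAs called between 2 h and 12 h kept its sign in all 218 values from the alternatives, and 124 of these passed the threshold. Since their 2 h and 12 h samples did not overlap, only median centring and quantile normalization could have reversed a sign. Counts of calls moved more. With the groups compared alone, the numbers were 0 for 2 h to 12 h, 0 for 6 h to 12 h, 0 for the F-test, 0 for the control line and 0 for the difference between lines (30, 20, 27, 14 and 20 at an unadjusted p under 0.05), and 2 for early against late. With the replicate block added they were all 0, early against late included (57, 10, 28, 16, 27 and 19); this leaves few residual degrees of freedom. With the replicate block in all samples, 13 were called from 2 h to 12 h, among them the 11, the control line gave 6 and early against late 3; it changed no other count by over 1.5 times. Median centring gave 5 for 2 h to 12 h, 2 for the F-test and 5 for the control line; quantile normalization gave 2 for early against late, as did no trend. The filter of low means gave 1 for the control line and 0 for early against late (29 at an unadjusted p under 0.05). Sample weights, whose estimation stopped before convergence, gave 68, 9, 15, 62, 1, 9 and 36 for 2 h to 12 h, 2 h to 6 h, 6 h to 12 h, the F-test, the control line, the lines and early against late, and reversed miR-335-5p to -0.0021 and miR-1981-3p to 0.168. Removing the axis of deviations, which acts on the residual spread alone and was chosen after seeing the data, gave 21, 9, 8, 32, 11, 7 and 14. Using samples of one line, also chosen then, gave 2 for the F-test and 1 for the control line. Leaving out samples gave 0 to 13 for 2 h to 12 h, 0 to 9 for 6 h to 12 h, 0 to 9 for the F-test, 1 to 8 for the control line, 0 to 9 for the lines and 0 to 4 for early against late, and 0 throughout for 2 h to 6 h. The cause of these moves was not tested. No limit from depth can be given.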
